A study of Mus musculus with 4 samples.

Results

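Foxp3, Csf1r, Il12rb2 and Alas2 mark lineages other than T helper 2 (Th2), yet each had read pairs assigned to it in libraries of Th2 cells. Each shares exon bases with a coding gene that runs the other way: Ccdc22 for Foxp3, Hmgxb3 for Csf1r, Serbp1 for Il12rb2 and Apex2 for Alas2. These 4 markers and 4 partners are 8 of the 50600 genes in the deposited tables. The markers were chosen because their counts were unexpected in Th2 cells, and the partners because they lie opposite them. The levels, shares and ratios of the 8 genes are therefore a description, with no test.

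The libraries held RNA of primary mouse Th2 cells of strain C57BL/6NJ, as biological replicates 1 to 4 of 1 group. The file headers place them at 48 hours of a time course of Th1 and Th2 cells, and no treatment, genotype or age is given. All 4 biosamples carry 1 donor identifier, so the p-value of a test over them measures only the spread between these samples, which may be technical. No second condition was compared, and in bulk RNA fewer cells of a type and less RNA per cell cannot be told apart.

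Totals ranged from 1785970 to 2271993 counts per library, and 0 counts for a gene allowed up to 3 counts, or 1.32 to 1.68 CPM (counts scaled to the library total). Replicate 4 had the lowest total and 15.9% of its counts on 1 row, CT010467.1, against 3.25% to 5.02% in the other 3 libraries. A row is the line of a table that holds 1 gene and its count. The T cell and Th2 list used to check the label had 16 of 20 genes above 3 counts in every library, among them Il4, Il13, Gata3, Cd4 and Cd3e, while Il5 was at 0 in all 4.

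Foxp3 is the transcription factor that defines regulatory T cells, the T cells that restrain other immune responses. Csf1r is the receptor tyrosine kinase through which macrophages respond to colony-stimulating factor 1, and Il12rb2 is the chain of the interleukin-12 receptor that signals in Th1 cells. Alas2 is the enzyme of red cell precursors that opens heme synthesis. Ccdc22 belongs to the CCC complex, which returns membrane proteins from endosomes to the cell surface, and Hmgxb3 carries an HMG box, a DNA-binding fold. Serbp1 encodes a protein that binds mRNA and the ribosome, and Apex2 encodes an endonuclease of base excision repair.

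The genes of a pair are transcribed in opposite directions, and they overlap through bases that are read in complement. Foxp3 (ENSMUSG00000039521.12, mm10, chromosome X, 7579676 to 7595243, plus strand) shares 590 bp in 4 blocks with Ccdc22 (ENSMUSG00000031143.4, 7593809 to 7605517, minus strand). Csf1r (ENSMUSG00000024621.15, chromosome 18, 61105572 to 61132149, plus strand) shares 1 block of 871 bp with Hmgxb3 (ENSMUSG00000024622.7, 61131279 to 61177050, minus strand). Il12rb2 (ENSMUSG00000018341.12, chromosome 6, 67291318 to 67376188, minus strand) shares 1519 bp in 2 blocks with Serbp1 (ENSMUSG00000036371.6, 67238176 to 67297736, plus strand). These 3 pairs met at the ends of their transcripts. Alas2 (ENSMUSG00000025270.13, chromosome X, 150547375 to 150570638, plus strand) lay within the span of Apex2 (ENSMUSG00000025269.16, 150519519 to 150589868, minus strand) and shared 311 bp in 1 block.

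**Figure D1:**
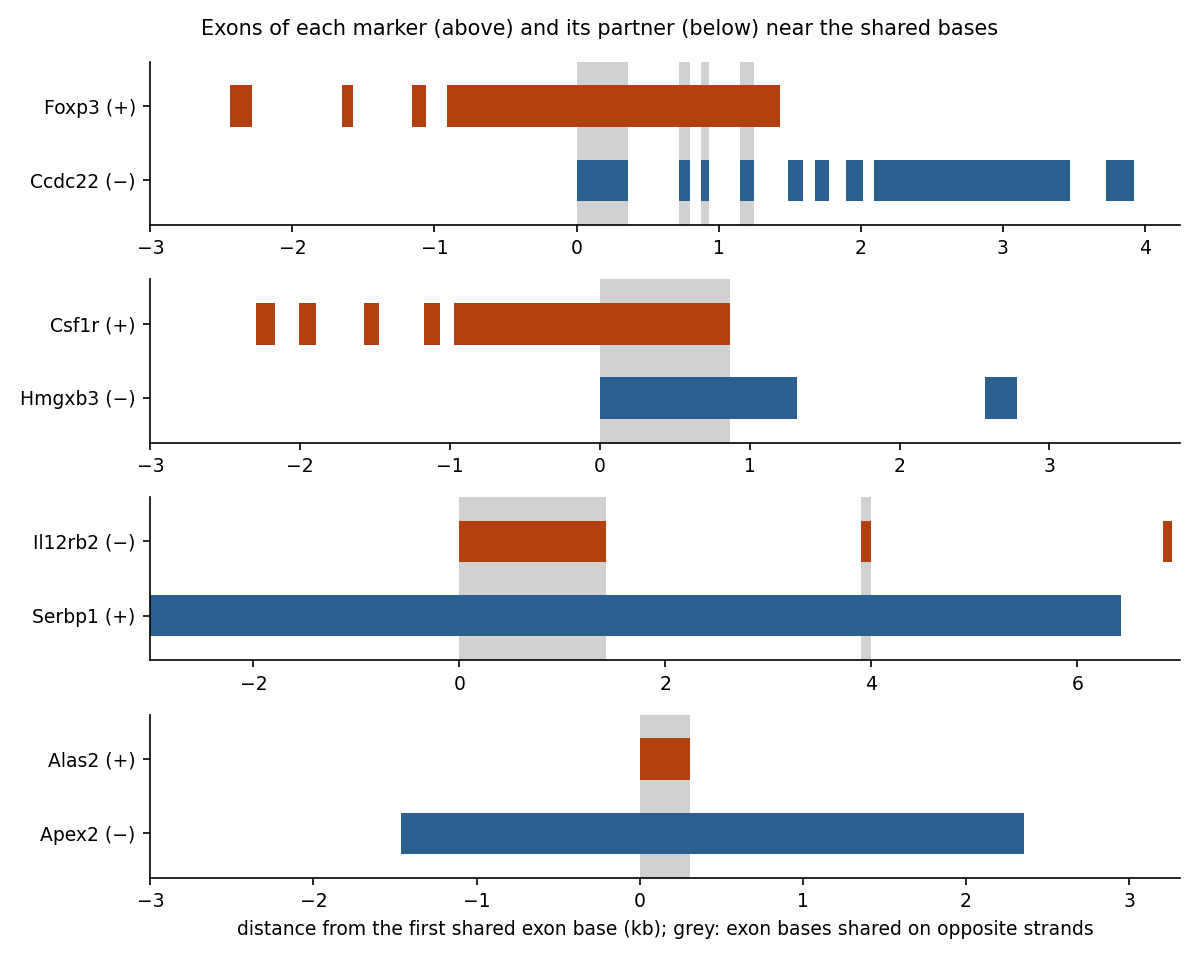
Exons of each marker (above) and its partner (below), with strand in brackets, against the distance from the first shared exon base (kb). Grey bands mark the exon bases shared on opposite strands, which come to 590, 871, 1519 and 311 bp from the top pair to the bottom pair.

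Where a stop codon lies in the shared bases, the same bases encode the end of 1 protein and belong to a noncoding exon part of the other gene. The last 30 coding bases of 3 members are shown for this reason, 5′ to 3′, with the stop codon in capitals, followed by the complement as the other gene reads it, with the same bases in capitals. They come from GENCODE vM21 transcripts on mm10.
Ccdc22, chrX:7594054-7594083, minus strand: ggcctcttgggccgggtccgagaggccTAG
Foxp3, chrX:7594054-7594083, plus strand: CTAggcctctcggacccggcccaagaggcc
Il12rb2, chr6:67292203-67292232, minus strand: tatgactccctcatgagtaatgaggctTGA
Serbp1, chr6:67292203-67292232, plus strand: TCAagcctcattactcatgagggagtcata
Alas2, chrX:150570462-150570491, plus strand: ggaccccaatatgttaccacctatgctTAA
Apex2, chrX:150570462-150570491, minus strand: TTAagcataggtggtaacatattggggtcc

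The shared bases differed in what they encode. None of the 590 bp was coding in Foxp3, while 345 bp were coding in Ccdc22. None of the 871 bp was coding in Csf1r, and 10 bp were coding in Hmgxb3. Of the 1519 bp, 634 were coding in Il12rb2 and none in Serbp1, and of the 311 bp, 164 were coding in Alas2 and none in Apex2. In each of the 4 pairs 1 of the genes contributed no coding base.

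The overlaps often rested on few of a gene's annotated transcripts. In GENCODE vM21, 1 of 6 Csf1r transcripts reached Hmgxb3, 1 of 16 Serbp1 transcripts reached Il12rb2 and 1 of 10 Apex2 transcripts reached Alas2. For Foxp3 4 of 10 transcripts reached Ccdc22. All exon bases of the 8 genes in the deposited tables were also exonic in vM21. The tables hold 1 total per gene, so counts inside and outside the shared bases cannot be told apart.

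Foxp3 had 667, 606, 682 and 490 counts in replicates 1 to 4. Ccdc22 had 0, 1, 6 and 0 counts, at or under 3 in all libraries but replicate 3. The values of Foxp3 and Ccdc22 did not overlap, and the lowest Foxp3 count belonged to the library with the lowest total. Foxp3 held 100%, 99.8%, 99.1% and 100% of the pair's counts, with exact 95% Clopper-Pearson bounds from 98.1% upward in replicate 3 and from 99.1% upward in the other 3.

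The Ccdc22 row could collect few read pairs. Of its 3427 exon bp, 2957 also belong to Gm36995, a noncoding gene on the same strand, and pairs that touch 2 genes on the counted strand were not assigned. That left 470 bp that count for Ccdc22 alone, and Gm36995 itself had 0 counts in all 4 libraries. Gm36995 also shares 373 bp with Foxp3 from the other strand. Flicr, a noncoding gene that shares 267 bp with Foxp3 on the same strand, had 19, 15, 35 and 20 counts and left Foxp3 3722 bp of its own.

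Over these countable bases, a length chosen after the counts were seen, Foxp3 was at least 28.1-fold and at least 20.6-fold denser than Ccdc22 in replicates 1 and 4, where Ccdc22 was at 0 and was set to 3 counts per library. The ratio was 76.5 (95% counting interval 13.7 to 3027) in replicate 2, on 1 Ccdc22 count, and 14.4 (6.56 to 39.2) in replicate 3. Foxp3 was the denser row in all 4 libraries. With Ccdc22 held at 3 counts or more, the log2 density ratio was 4.42 ± 0.429 over the countable bases and 7.19 ± 0.429 over all exon bases (SD, n = 4 each). The larger value divides the Ccdc22 counts by bases that could not collect any, and so does the TPM of Ccdc22. The other 3 pairs have no exon bases shared on the same strand, and their ratios are the same over either length.

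Csf1r had 1409, 1363, 1457 and 1066 counts. Hmgxb3 had 16, 9, 4 and 9 counts, above 3 in every library. The Csf1r counts exceeded those of Hmgxb3 in every library, and the groups of values did not overlap. Csf1r held 98.9%, 99.3%, 99.7% and 99.2% of the pair's counts, and its density was 92.0, 158, 380 and 124 times that of Hmgxb3. The log2 density ratio was 7.34 ± 0.883 (SD, n = 4), and the ratio in replicate 3 rested on 4 Hmgxb3 counts, with a counting interval of 148 to 1398. Neither gene shares an exon base with any other gene.

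Il12rb2 had 60, 67, 55 and 48 counts. Serbp1 had 575, 381, 369 and 327 counts, most of all in replicate 1. Here the partner row was the higher in all 4 libraries, and Il12rb2 held 9.45%, 15.0%, 13.0% and 12.8% of the pair's counts.

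Serbp1 has 20117 exon bp and Il12rb2 3794, so the order depended on the scale. Per exonic kb the Il12rb2 density was 0.553, 0.932, 0.790 and 0.778 of that of Serbp1. The counting interval lay below 1 in replicate 1 (0.417 to 0.723) and held 1 in the other 3 libraries. The log2 density ratio was -0.41 ± 0.316 (SD, n = 4). With the Il12rb2 counts set over the 1519 shared bp alone, it became 0.91.

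Alas2 had 35, 33, 38 and 24 counts. Apex2 had 46, 49, 41 and 27 counts, so the values of the 2 genes overlapped. Alas2 held 43.2%, 40.2%, 48.1% and 47.1% of the pair's counts, and each exact 95% interval held 50%.

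Apex2 spans 8744 exon bp and Alas2 2403. Per exonic kb Alas2 was 2.77, 2.45, 3.37 and 3.23 times as dense, and the counting interval lay above 1 in every library. The order depends on the length used. That of Apex2 joins the exons of all its annotated transcripts, of which 1 of 10 reached Alas2. Which transcripts gave the counts was not tested, and the counting interval does not cover the choice of length. The log2 density ratio was 1.55 ± 0.212 (SD, n = 4). Alas2 also shares 61 bp with the microRNA gene Mir3620, which was at 0 in all 4 libraries. Apex2 shares 123 bp with Pfkfb1, which encodes an enzyme of fructose 2,6-bisphosphate turnover and had 3, 7, 2 and 4 counts.

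**Figure D2:**
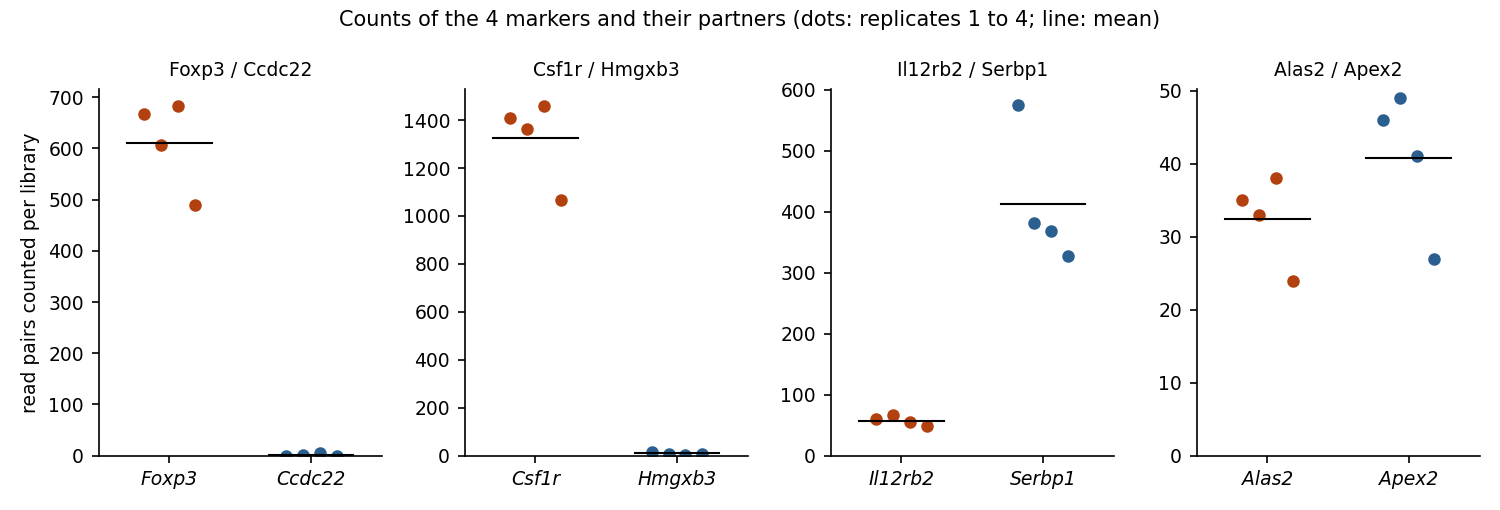
Read pairs counted per library for the marker (orange) and partner (blue) of each pair, on linear axes from 0 that differ between panels. Dots are replicates 1 to 4 from left to right and lines are means. Foxp3 and Csf1r sit far above Ccdc22 and Hmgxb3, Serbp1 sits above Il12rb2, and the Alas2 and Apex2 dots overlap.

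On a common scale per length, TPM (the count per exonic kb, scaled to the same sum in every library), Csf1r was the highest at 196 ± 5.16 and Foxp3 followed at 111 ± 3.96. Serbp1 averaged 14.8 ± 2.85, Il12rb2 11.0 ± 1.11, Alas2 9.73 ± 0.774, Apex2 3.34 ± 0.506, Hmgxb3 1.35 ± 0.645 and Ccdc22 0.349 ± 0.569 TPM (SD, n = 4 each). The TPM ranges over libraries of Il12rb2 (9.85 to 12.4) and Alas2 (8.86 to 10.7) overlapped. So did those of Hmgxb3 (0.533 to 2.07) and Ccdc22 (0 to 1.19), while the lowest Serbp1 value, 12.5, lay just above the highest of Il12rb2.

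By mean TPM Csf1r ranked 237 and Foxp3 380 among 21764 protein-coding genes. Serbp1 ranked 1338, Il12rb2 1587 and Alas2 1698. Apex2 ranked 3270, Hmgxb3 5423 and Ccdc22 8906. The 2 leading markers thus stood above 98.9% and 98.3% of coding genes.

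Above 3 counts in every library stood 7 of the 8 genes, all 4 markers and 3 partners. The same held for 26.5% of all protein-coding genes, for 53.4% of those with an exon overlap on the other strand and for 19.0% of those without one. The markers were chosen on these counts, so nothing is read from the difference. The partners had been taken as expressed neighbours. The Serbp1 and Apex2 rows held counts in every library, but the Hmgxb3 row held few and the Ccdc22 row was at or under the floor in 3 of 4 libraries. Whether any partner was expressed was not tested, because the strand that the kit reads is not given. Without it, a full or nearly empty row cannot be tied to the RNA of its own gene. For Ccdc22, moreover, only 470 bp could be counted.

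Variation between libraries was not used to choose the genes. The TPM of Csf1r varied with a coefficient of variation (CV) of 2.63%, and counting alone gives 2.76%. For Foxp3 the CV was 3.58% and counting gives 4.06%. The CV of Il12rb2 was 10.1% with 13.2% from counting, that of Alas2 7.96% with 17.6%, and that of Apex2 15.2% with 15.7%. On the TPM scale these 5 genes varied by no more than counting alone would give. The counting CV was computed from the library totals. Csf1r and Foxp3 varied by more than counting gives on other scales. By library total they were 631 ± 28.2 and 291 ± 14.6 CPM (SD, n = 4 each). With DESeq2 size factors they were 633 ± 69.9 and 292 ± 34.5 CPM. Apex2 did so by library total, at 19.3 ± 3.37 CPM, and Il12rb2 and Alas2 on none of these scales.

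Serbp1 had a CV of 19.3% against 4.94% from counting, the highest ratio of the 2 among the 8 genes. Hmgxb3 varied by 47.7% with 32.6% from counting and Ccdc22 by 163% with 75.9%, both on few counts. Replicate 1 was the high library for Serbp1 at 18.9 TPM, and the other 3 lay between 12.5 and 14.4 TPM.

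The edgeR goodness-of-fit test asks whether a gene varied between the 4 libraries by more than the trend for genes of its level. A gene that is not called need not have equal levels. The test was run over 5064 genes. It called 0 of the 6 genes that passed its filter on low counts, against 0.454% of all genes tested (23 genes). Ccdc22 and Hmgxb3 did not pass the filter. Without adjustment 1 of the 6, Serbp1, passed 0.05, as did 260 of the 5064 genes tested. The edgeR p of Serbp1 was 0.0468 and its Benjamini-Hochberg adjusted p was 0.954. The edgeR adjusted p of the other 5 was 1.00 after rounding. DESeq2 marked 0 of the 8 as dispersion outliers. For Serbp1 the adjusted p ranged from 0.584 to 1.00 over the alternatives.

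**Figure D3:**
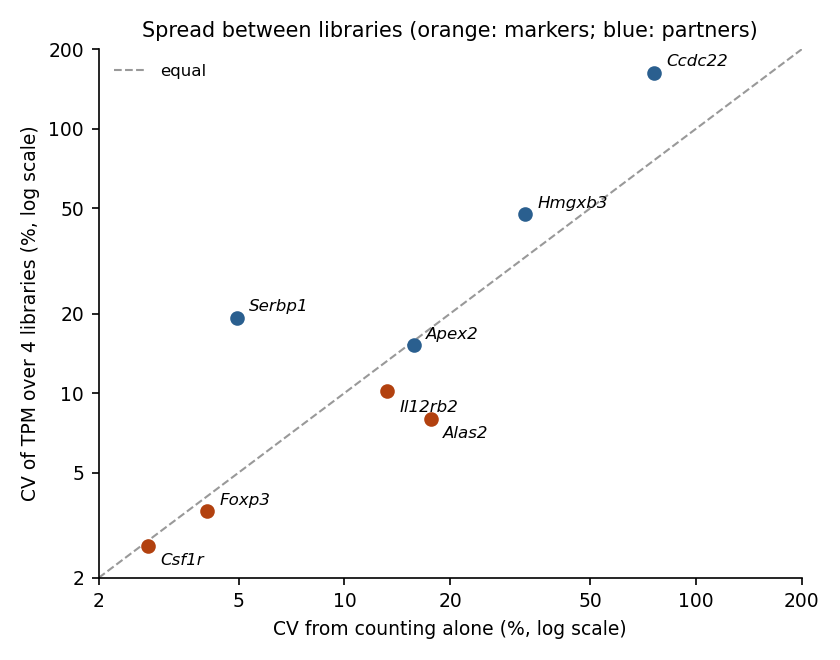
CV of TPM over the 4 libraries (%, log scale) against the CV that counting alone gives (%, log scale) for the 4 markers (orange) and 4 partners (blue). The 4 markers lie below the line of equality, and Serbp1, Hmgxb3 and Ccdc22 lie above it.

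The nearest coding genes that lie wholly outside each pair, 1566 to 200719 bp away, had few or no counts. They were chosen after their values were seen. Next to Foxp3 and Ccdc22, Ppp1r3f had 3, 3, 1 and 2 counts, and the calcium channel gene Cacna1f had 0 in all libraries. Next to Csf1r and Hmgxb3, Pdgfrb, the receptor gene that lies beside Csf1r, had 0 in all, and the sulfate transporter gene Slc26a2 had 6, 2, 0 and 6. Il23r, the interleukin-23 receptor gene beside Il12rb2, had 0, 2, 1 and 0, and the stress gene Gadd45a on the far side of Serbp1 had 6, 6, 7 and 1. For Alas2 and Apex2, Tmem29, 60365 bp away, had 3, 5, 1 and 3 counts. Tro, 55436 bp away and beyond Pfkfb1, had 0, 3, 1 and 1.

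Among all genes, 1388 pairs of coding genes shared exon bases on opposite strands, and 783 of them met end to end. At a summed mean of 100 counts or more, 1 row held at least 95% of the counts in every library in 37.9% of end-to-end pairs (189 of 499). Foxp3/Ccdc22 and Csf1r/Hmgxb3 were among them and Il12rb2/Serbp1 was not. In the other 496 pairs the row with more counts held a median of 92.7%, and the shared length had a median of 449 bp with quartiles of 174.5 and 991 bp. At 99% or more in every library the number of pairs was 43, and Foxp3/Ccdc22 was among them. Of the 3 end-to-end marker pairs, the shared lengths of 590 and 871 bp lay between the quartiles and the 1519 bp of Il12rb2/Serbp1 lay above the upper one.

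**Figure D4:**
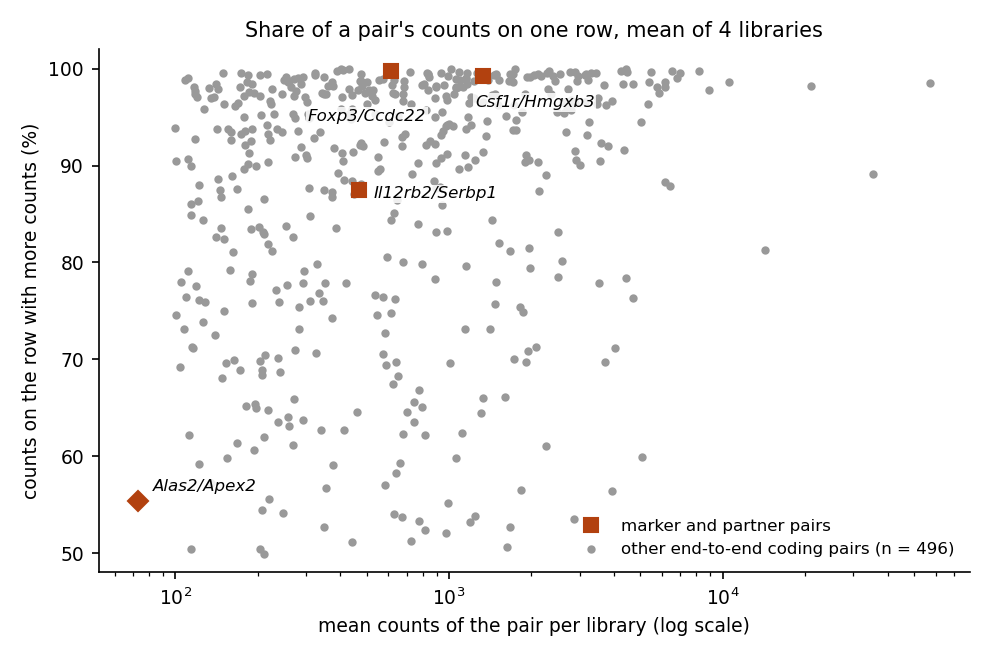
Share of a pair's counts on the row with more counts (%) against the mean counts of the pair per library (log scale), as means of 4 libraries. Grey dots are the 496 other end-to-end coding pairs and orange symbols the marker pairs, with a diamond for Alas2/Apex2, which is not end to end and falls under 100 counts. Foxp3/Ccdc22 and Csf1r/Hmgxb3 sit in the dense band near the top.

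For each marker pair the 2 end-to-end pairs with the most similar counts were found by the distance of log2(count + 1) over 8 values, those of 2 genes in 4 libraries. Nearest to Foxp3/Ccdc22 were B3gnt8, a glycosyltransferase gene with 638, 594, 637 and 497 counts, and Bckdha, a gene of branched-chain amino acid breakdown with 0, 2, 4 and 2. The next was Tmem116 with 1227, 1038, 1073 and 718 counts opposite Gm42878, which had 1 count in all. Both pairs had 1 full and 1 nearly empty row, which the match on counts favours.

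Nearest to Csf1r/Hmgxb3 were Hacd4 (1536, 1526, 1591 and 1124) opposite Focad (15, 10, 3 and 11), at a distance of 0.513. The next was Smpd2, a sphingomyelinase gene with 1289, 1223, 1234 and 807 counts, opposite Mical1 with 15, 13, 5 and 11. Focad and Mical1 had their lowest count in replicate 3, as Hmgxb3 did. The pairs were matched on these same counts, so nothing is read from the likeness.

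Il12rb2/Serbp1 lay nearest to a pair of Tbc1d8 (450, 446, 408 and 259 counts) and Rpl31, a ribosomal protein gene with 65, 48, 45 and 43. It was followed by Dclre1c (553, 524, 555 and 384) with Suv39h2, a histone methyltransferase gene (69, 65, 51 and 46). For Alas2/Apex2 they were Oprm1, the mu opioid receptor gene (54, 61, 48 and 27), with Ipcef1 (37, 36, 37 and 25), and Ldhd (48, 50, 37 and 25) with Znrf1 (43, 39, 40 and 20). Oprm1 is another gene known from a different tissue, here the nervous system, with counts in every Th2 library. Its pair was also picked for having such counts.

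The lineages that the markers stand for were followed through lists of 24 further genes each. Of the myeloid list, 0 of 24 genes exceeded 3 counts in every library, while Csf1r alone stood at 191 to 203 TPM. The summed level of the list was 1.56 to 7.40 TPM. Of its genes 18 were at 0 in all libraries, among them Adgre1, Cd14, Itgam, Fcgr1, Mertk and the macrophage factor Spi1. Csf1, a ligand of Csf1r, had 0, 0, 2 and 0 counts, and Il34, the other ligand, was at 0. The highest 3 were the lysosomal gene Cd68 at 1.71 ± 0.710, the signalling adaptor Tyrobp at 1.28 ± 1.93 and Csf2ra at 0.636 ± 0.536 TPM (SD, n = 4).

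The erythroid list had 4 of 24 genes above 3 counts in every library and summed to 124 to 141 TPM. The globin genes Hba-a1, Hba-a2, Hbb-bs and Hbb-bt and the red cell membrane gene Slc4a1 were at 0 in all 4 libraries. Most of the sum lay on Ppox, an enzyme late in heme synthesis, at 112 ± 3.92 TPM (SD, n = 4). Ppox shares 791 bp with B4galt3 on the other strand and had 802, 692, 740 and 567 counts, against 34, 33, 22 and 19 for B4galt3. Next was the transferrin receptor gene Tfrc at 9.20 ± 3.52 TPM. Alas1, the form of Alas2 used outside red cells, stood at 1.37 ± 0.316 TPM.

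The regulatory T cell list had 14 of 24 genes above 3 counts in every library and summed to 90.3 to 131 TPM. The highest were the activation receptor gene Tnfrsf4 at 21.8 ± 8.73, Nrp1 at 18.9 ± 1.19 and Il2ra, a chain of the interleukin-2 receptor, at 17.4 ± 3.35 TPM (SD, n = 4). None of these 3 has an exon overlap on the other strand. Ctla4 had 25, 24, 11 and 13 counts, while Ikzf2, a factor of regulatory T cells, had 1, 1, 0 and 0 and Entpd1 and Klrg1 were at 0. The list also holds genes that other activated T cells use, such as Il2ra, Tnfrsf4 and Ctla4. Its part in the Foxp3 counts was not tested.

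The Th1 and interleukin-12 receptor list had 7 of 24 genes above 3 counts in every library and summed to 25.0 to 45.3 TPM. Jak2, the kinase bound to Il12rb2, led with 25.1 ± 9.63 TPM, followed by the chemokine receptor gene Cxcr6 at 2.30 ± 0.599 and Il12rb1, the other receptor chain, at 1.99 ± 1.13 TPM (SD, n = 4). The Th1 factor Tbx21 had 1, 5, 2 and 4 counts and its target Ifng had 1, 0, 1 and 0. Il27ra had 6, 5, 6 and 5 counts and shares 2 bp with Palm3, which had 157, 158, 138 and 128.

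Over the 4 marker lists, 6 of 15 genes with an exon overlap on the other strand exceeded 3 counts in every library, and 19 of 81 without one did. The lists differed. The regulatory T cell list had 2 of 5 with an overlap and 12 of 19 without one. The Th1 list had 2 of 3 and 5 of 21, the erythroid list 2 of 4 and 2 of 20, and the myeloid list 0 in both. Overlaps with noncoding genes are included, and of the 15 only Ppox and Il27ra lay opposite a coding gene. Over the 4 lists drawn around the partners the counts were 30 of 33 with an overlap and 26 of 52 without one. All coding genes gave the shares above, 53.4% with an overlap and 19.0% without one. Their median levels were 1.35 TPM with an overlap and 0.0192 TPM without one.

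**Figure D5:**
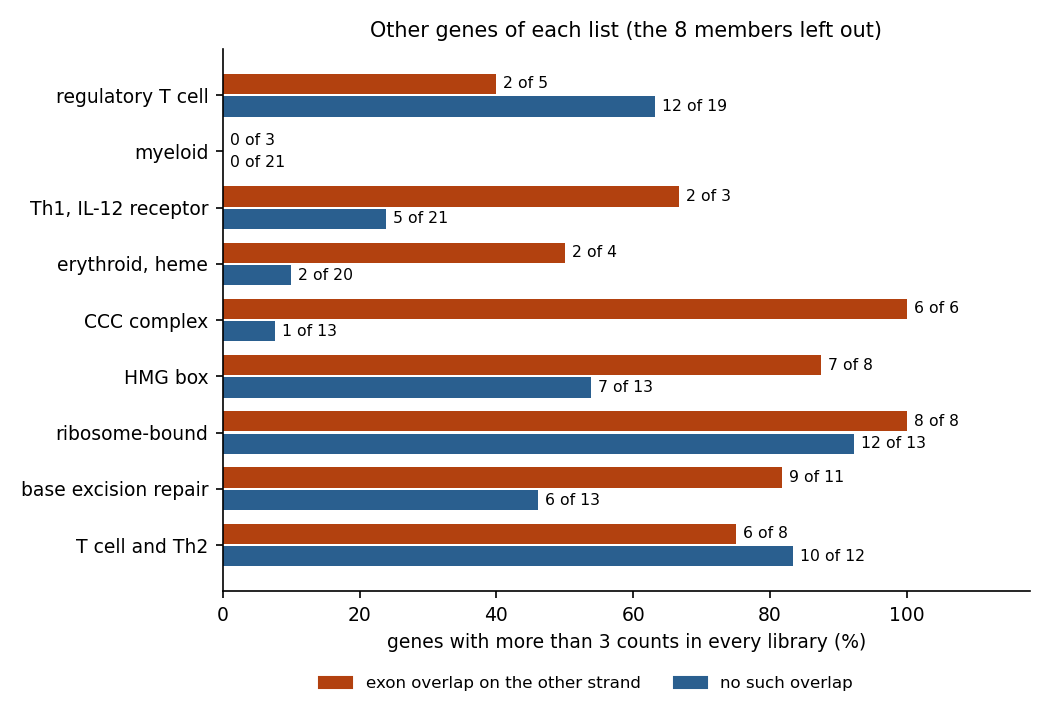
Percent of the other genes of each list with more than 3 counts in every library, for genes with an exon overlap on the other strand (orange) and without one (blue), with counts at the bars. The list drawn around the CCC complex stands at 6 of 6 with an overlap and 1 of 13 without one, and the myeloid list at 0 in both.

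The list drawn around the CCC complex, in which Ccdc22 acts, also holds other endosomal genes, such as the Washc genes and Snx17. It split by overlap. All 6 genes with an overlap exceeded 3 counts in every library and their median was 27.2 TPM, while 1 of 13 without one did and their median was 0.941 TPM. The ribosome-bound and mRNA-binding list did not split in this way, at 8 of 8 with an overlap and 12 of 13 without one. Of the 6 genes around the CCC complex, Ccdc93 at 0.417 TPM, with 12 bp shared, and Washc2 at 0.783 TPM were low. Both lay below the median of the genes without an overlap, and neither has a coding gene opposite. Vps29 had 481, 433, 499 and 371 counts, against 48, 36, 39 and 32 for Fam216a opposite it. Vps35l had 1040, 1015, 1025 and 701, against 61, 58, 50 and 54 for Knop1, and Commd1 had 194, 160, 185 and 144, against 27, 23, 17 and 14 for Zrsr1. Snx17 went the other way, with 166, 177, 130 and 104 counts, against 421, 369, 449 and 329 for Eif2b4. Snx17 also shares 163 bp with Zfp513, and held a mean of 68.9% of the counts of that pair. The direct Ccdc22 partner Ccdc93 had 9, 6, 4 and 7 counts, and of the 10 Commd genes only Commd1 and Commd8 exceeded 3 counts in every library.

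Among HMG-box genes, relatives of Hmgxb3, 7 of 8 with an overlap and 7 of 13 without one exceeded 3 counts in every library. Hmgb2, a chromatin protein gene with no overlap, was the highest at 135 ± 11.3 TPM. Hbp1 followed at 97.9 ± 7.68 TPM, with 847, 868, 982 and 651 counts against 340, 318, 350 and 225 for Cog5. Tox4 stood at 72.5 ± 5.35 TPM (SD, n = 4) opposite Mettl3, a subunit of the RNA methyltransferase. Ssrp1, a histone chaperone subunit, had 150, 138, 83 and 123 counts, while P2rx3, an ion channel gene of sensory neurons that shares 51 bp with it, had 1595, 1620, 1708 and 1141. Hmgb1 had 62, 70, 53 and 58 counts opposite Uspl1 with 10, 8, 6 and 4.

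The ribosome-bound and mRNA-binding genes, grouped with Serbp1, were above 3 counts in every library in 20 of 21 cases, 8 of 8 with an overlap and 12 of 13 without one. The mRNA-binding protein gene Ybx1 at 181 ± 26.3, the elongation factor gene Eef2 at 99.9 ± 28.4 and the poly(A)-binding protein gene Pabpc1 at 26.2 ± 6.09 TPM led, all with no overlap (SD, n = 4). By TPM Serbp1 lay below these 3. By counts it lay above Pabpc1, which had 280, 235, 151 and 171, in every library. Eef2 had 580, 448, 305 and 476 counts. Replicate 1, the library with the largest total, held the most counts of Eef2, Ybx1 and Pabpc1, as it did of Serbp1. Scaled to the library total, replicate 1 remained the highest for Ybx1 and Pabpc1, but replicate 4 was higher for Eef2. Fxr1 had 58, 43, 38 and 28 counts, against 1177, 1262, 1224 and 885 for Dnajc19 opposite it, and Igf2bp3 had 69, 90, 88 and 63 against 781, 749, 659 and 430 for Malsu1. Rack1, Upf1, Elavl1 and Khsrp were the other genes of this list opposite a coding gene and above 3 counts, at 2.46 to 20.3 TPM.

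The base excision repair list, to which Apex2 belongs, had 9 of 11 genes with an overlap and 6 of 13 without one above 3 counts in every library. Apex1, the main AP endonuclease, stood at 59.1 ± 12.2 TPM (SD, n = 4), with 165, 101, 121 and 83 counts. Opposite it Pip4p1, a phosphoinositide phosphatase gene that shares 877 bp, had 6444, 6274, 6674 and 4658. Pcna, the replication clamp gene with no overlap, was next at 19.8 ± 5.41, and the ligase gene Lig1, opposite Zswim9, at 14.5 ± 4.29 TPM. Lig3 had 125, 139, 120 and 71 counts against 1816, 1670, 1829 and 1278 for Rffl, and the glycosylase gene Mpg had 33, 39, 34 and 33 against 1207, 1076, 1121 and 814 for Nprl3. Tdg and Fen1, opposite Glt8d2 and Tmem258, stood at 1.47 ± 0.265 and 3.25 ± 1.16 TPM. Apex2 itself lay between Fen1 and Lig1.

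In the T cell and Th2 list Cd247, the zeta chain of the T cell receptor, was the highest at 168 ± 8.39 TPM, with 1360, 1364, 1278 and 972 counts against 330, 267, 331 and 180 for Pou2f1, with which it shares 3007 bp. The CD3 chain genes Cd3e, Cd3g and Cd3d stood at 2.33 to 7.83 TPM and Trac, the constant part of the receptor alpha chain, at 10.1 TPM. Ptgdr2, a prostaglandin receptor of Th2 cells, followed at 59.3 ± 8.89 TPM with 249, 263, 216 and 147 counts against 24, 7, 5 and 8 for Ccdc86. Il4, with no overlap, stood at 18.5 ± 2.46 TPM, and Stat6, opposite Nab2, at 10.1 ± 0.490 TPM (SD, n = 4).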

How the data were processed

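The deposited tables give a raw count of read pairs for each gene. Per the file headers they were made by featureCounts 1.4.6-p4 with strand setting 1, both ends mapped, exons summed by gene, on GENCODE vM13 and mm10, from STAR output by its file name. A pair that touches 2 genes on the counted strand is not assigned in this mode. The labels say total RNA, and the title of the linked protocol says poly(A)+ RNA. Which strand the kit reads is not given in the sources used here, so its part in any count was not tested. The exon lengths are also per the deposited tables.

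Names and types came from GENCODE vM21 (same build); 224 of 50600 genes had no match. Exon overlaps used the coordinates of the tables. TPM was computed from count and exon length. A density ratio divides counts per exonic kb, and for Foxp3/Ccdc22 also counts per kb of exon that no other gene on the strand shares, counting the sparser row as 3 where it held fewer. Intervals are exact Clopper-Pearson (95%) and, like the floor of 3 counts, cover counting error alone, because PCR copies of a molecule are counted as separate read pairs where no molecular identifier tells them apart. Replicate variation was tested with the goodness-of-fit function of edgeR 4.0.16, under R 4.3.3 with limma 3.58.1. The negative binomial model held 1 mean per gene, a trended dispersion and TMM factors. Genes passed filterByExpr, and p-values were adjusted over all genes tested, with a threshold of 0.05. It was tested on simulated data first. Size factors and outlying dispersions were also taken from DESeq2 1.42.0. Overlaps and intervals were computed in Python 3.11.15 (SciPy 1.17.1, numpy 2.4.6, pandas 2.3.3) and drawn with Matplotlib 3.10.9.

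The members, gene lists and tests were chosen with earlier results of these data known. Named genes are the 8 members, every gene sharing an exon base with them, the 3 highest of each list by mean TPM, list genes above 3 counts in every library opposite a coding gene, and the 2 nearest end-to-end pairs. Some values are left out and not reported here. Other genes named were chosen after their values were seen. Of the listed symbols, 2 had no single row in the tables. No reference genome sequence was used here.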

Additional observations from a re-analysis of the deposited data

Results flagged for a closer look

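Of 18 series of 4 values examined with Dixon's ratio (the TPM of the 8 genes, the share and density ratio of the 4 pairs, the total and the share of CT010467.1), 1 was above the 95% critical value for 4 samples. It was the share of counts on CT010467.1, which was 15.9% in replicate 4 and 3.25% to 5.02% in the other 3 libraries. Chance flags about 1 in 20 such series. Without CT010467.1 and Gm42418 the mean level of Foxp3 was 116 TPM and that of Csf1r 205 TPM. No level, share or density ratio of the 8 genes stood out in this way, and Ccdc22 came nearest with a ratio of 0.827, from 1.19 TPM in replicate 3.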

How the results depend on the processing

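Of 176 values recomputed under the alternatives, 157 stayed the same by the rule for their kind, 18 moved and 1 reversed in sign. Levels, shares and ratios had to keep direction and stay within the spread, and counts of genes or pairs within a set range. The 54 adjusted p-values had only to stay on the same side of 0.05. The reversal was Il12rb2 over Serbp1, at 0.91 on the log2 scale with the marker's counts set over the shared bases alone. That alternative shortens the marker's length by construction, and it also gave 9.95 for Foxp3/Ccdc22, 9.83 for Csf1r/Hmgxb3 and 4.50 for Alas2/Apex2. With TPM + 1 the log2 ratios were 6.45, 6.43 and 1.31 for these 3 pairs, and with TPM + 0.1 it was 8.79 for Foxp3/Ccdc22. Over the countable bases, an alternative chosen after seeing the data, the log2 ratio of Foxp3/Ccdc22 was 4.42, since the partner has fewer such bases. As a share of TPM, which adjusts for length, Il12rb2 held 42.9% of its pair and Alas2 74.5%. For Alas2 the leading row changed, since it held a mean of 44.7% of the counts. A share cannot change sign, so this is tallied as moved. At 10 counts or more in every library, 2 genes of the marker lists with an overlap and 11 without one passed. End-to-end pairs with 1 dominant row numbered 43 at a share of 99%. Genes that varied between replicates numbered 15 with no filter beyond 1 count and 7 to 20 without each replicate in turn, with 12 without replicate 3 and 7 without replicate 4, where the cause was not tested. All 54 recomputed adjusted p-values of the 6 members tested stayed above 0.05. Depth limits the ratios against Ccdc22, which had 0 to 6 counts over 470 countable bp, and against Hmgxb3, which had 4 to 16. No paired analysis was possible because there was 1 group.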
